A study of Arabidopsis thaliana with 6 samples.

Results

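The 10 loci described here code for proteins with a DUF295 domain in Arabidopsis thaliana, and they are 10 of the 33602 gene models counted in the series. They are a hand-picked list from a comparison of these data: their counts were high in the white leaf border of a mutant and low in the green leaf border of the wild type. That difference is therefore what chose them and is given below as a description. RefSeq names the product of 9 of the loci only as a hypothetical protein (DUF295), and that of AT4G17565 as an F-box protein (DUF295).

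DUF295 is a domain of unknown function that has multiplied in the Arabidopsis genome, often as tandem copies. Many family members carry an F-box, the part of a protein that docks a substrate receptor onto a ubiquitin ligase. Others lack it, and some of those are known to be directed to mitochondria or chloroplasts and to be switched on when mitochondria fail. Genes of that mitochondrial response share a promoter element, the mitochondrial dysfunction motif, which is bound by membrane-tethered NAC transcription factors such as ANAC013 and ANAC017.

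RNA came from 3 groups of 2 libraries, all from young rosette leaves at Boyes stage 1.13 of untreated plants grown in soil at 18 to 21 °C. The white border is that of leaves of FLV mutants, from the T-DNA stock salk_139995. The green border and the centre are those of leaves of col0, the wild type, and are labelled WT border and WT centre. The mutant is represented by 1 stock, and its own leaf centre is not among the 6 libraries. The labels do not say whether libraries of a group came from separate plants, so p-values measure only the spread between these libraries, which may be technical.

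The libraries held 20448315 to 33214552 counts, with 70.9 to 88.9% of reads mapped. DOT4, which codes for a plastid editing factor and is the gene behind the flavodentata name, had 10.2 and 12.4 counts per 1e6 (CPM) in the white border, 0.515 and 1.80 in the green border, and 0.444 and 0.412 in the centre. Its reads were thus more numerous in the libraries labelled FLV border, which does not check the label in the way a lost transcript would, and the white border below means the libraries labelled FLV border. The summed level of 5 photosynthesis genes was 4960 and 9770 CPM in the white border, 23100 and 31200 in the green border, and 31400 and 108000 in the centre. WOX1, a leaf margin gene, had 1.18 and 1.03 CPM in the white border, 2.92 and 1.84 in the green border, and 0.0887 and 0.0686 in the centre. The other 2 genes of the leaf margin list were below 1 CPM in every library, and PRS did not separate the groups. PRS had 0.122 and 0.0808 CPM in the white border, 0.0859 and 0.0347 in the green border, and 0.799 and 0 in the centre. CYP78A5 had 0.163 and 0.121 CPM in the white border, 0.115 and 0 in the green border, and 0.177 and 0.343 in the centre. These ranges did not overlap, and the centre was highest. They rest on 8 and 6 reads in the white border, 4 and 0 in the green border, and 2 and 5 in the centre. Library 1 of the centre stood apart, with 17.1% of its counts in small nuclear and nucleolar RNAs against 2.16 to 9.92% in the other 5 libraries. The summed level of 3 xylem genes, mostly IRX3 and XCP1, was 21.1 to 26.8 CPM in the white border, 14.1 to 16.7 in the green border and 8.34 to 9.47 in the centre. The third, VND7, was lower in the white border, 0.428 and 0.485 CPM, than in the green border, 0.63 and 1.21. XCP1 did not separate the green border, 6.67 and 6.77 CPM, from the centre, 5.06 and 7.96. The 3 leaf margin genes together, mostly WOX1 in the borders, had 1.23 to 1.47 CPM in the white border, 1.87 to 3.12 in the green border and 0.412 to 1.06 in the centre. Sums over 3 phloem genes (99.3 to 237 CPM) and 3 guard cell genes (4.53 to 17.5 CPM) overlapped between the groups. In tissue pieces like these, fewer cells of a type and less RNA per cell cannot be told apart.

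The mitochondrial dysfunction motif lies before 8 of the 10 coding sequences, and these sites are shown because they are what the loci share beyond their proteins and their counts. The motif was searched on both strands as CTTG, any 5 bases, and then CAAG or CACG, and the 13 bases that match it are in capitals within 29 bases of TAIR10.1 read in the direction of the gene. The sites are at chr1:10609604-10609632 on the minus strand for AT1G30170, chr5:21598718-21598746 on the plus strand for AT5G53230, chr5:21601411-21601439 on the plus strand for AT5G53240, chr5:22419091-22419119 on the plus strand for AT5G55270, chr5:22161030-22161058 on the plus strand for AT5G54560, chr4:7952873-7952901 on the minus strand for AT4G13680, chr5:22158298-22158326 on the plus strand for AT5G54550 and chr5:21470235-21470263 on the plus strand for AT5G52930.
AT1G30170: agaaaaagCTTGCTATCCACGcttatttc
AT5G53230: tttggaaaCTTGGTGGGCAAGacagagca
AT5G53240: tttggaaaCTTGGTGGGCAAGacagatca
AT5G55270: gtgggaaaCTTGTTGGGCAAGtcctttcc
AT5G54560: atggaagaCTTGGTGGGCAAGgccattcc
AT4G13680: atgagaaaCTTGGTGAGCAAGttattgat
AT5G54550: attgaagaCTTGGTGGGCAAGgccattgc
AT5G52930: tccaaagaCTTGGTGGGCACGgtgatacc

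The same 13 bases, CTTGGTGGGCAAG, occurred before AT5G53230, AT5G53240, AT5G54560 and AT5G54550. The 5 bases between the ends of the motif are free to vary, and the sites of AT5G55270, AT4G13680 and AT5G52930 still resembled this version, while that of AT1G30170 had other letters there. The sites ended 82 to 127 bases before the start codon. Those of AT5G54560 and AT4G13680 lay inside the annotated transcript, that of AT1G30170 spanned its start, and the other 5 lay before it.

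In a window from 250 bases before to 50 bases after the annotated transcript start, 6 of the 10 loci held the motif. The share was 7 of 83 (8.43%) among the other protein-coding DUF295 loci and 376 of 26711 (1.41%) among all protein-coding loci. In a window of 500 bases before the start codon, chosen after seeing where the sites lie, the shares were 8 of 10, 9 of 83 (10.8%) and 629 of 26711 (2.35%). Only AT1G30160 and AT4G17565 had no match in that window. The G-box CACGTG was found in 0 of the 10 windows around the transcript start against 7.79% of all, and TTGACC, the core of the W-box that WRKY factors bind, in 2 of 10 (20.0%) against 14.1% of all. The 8 sites are not independent occurrences, since the proteins and some upstream stretches of these loci are alike.

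**Figure D1:**
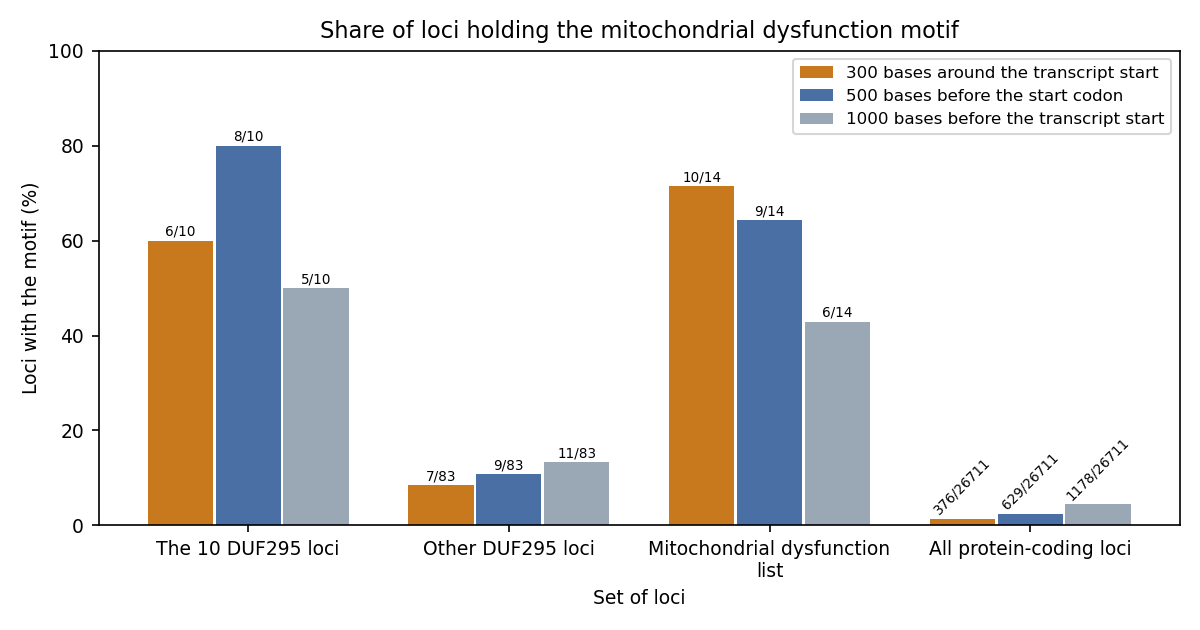
Share of loci (%, axis from 0) that hold the mitochondrial dysfunction motif in 3 windows, for the 10 DUF295 loci, the other DUF295 loci, a list of 14 mitochondrial dysfunction genes and all protein-coding loci; numbers above the bars are loci with the motif over loci searched. The bars of the 10 loci stand at 6, 8 and 5 of 10, and those of all protein-coding loci between 1.41 and 4.41%.

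A list of 14 genes known to respond to mitochondrial dysfunction held the motif in 10 (71.4%) of the windows around the transcript start, but the motif was first described on genes of this kind, so this share is no independent reference. In the bars for a window of 1000 bases before the transcript start, also added after seeing the data, the 10 loci had 5 matches (50.0%), because sites inside or across the transcript start fall outside it. All protein-coding loci had 1178 matches (4.41%) there.

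The tandem pair AT5G53230 and AT5G53240 shared more than the motif. The 200 bases before their annotated transcript starts, at chr5:21598648-21598847 and chr5:21601281-21601480 on the plus strand of TAIR10.1, hold an identical run of 40 bases around the site. They are printed whole, with the motif in capitals, to show how far the likeness reaches.
AT5G53230 upstream: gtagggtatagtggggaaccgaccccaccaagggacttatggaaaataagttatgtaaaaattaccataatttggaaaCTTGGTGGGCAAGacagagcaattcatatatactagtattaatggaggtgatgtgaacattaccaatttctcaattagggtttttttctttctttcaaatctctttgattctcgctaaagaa
AT5G53240 upstream: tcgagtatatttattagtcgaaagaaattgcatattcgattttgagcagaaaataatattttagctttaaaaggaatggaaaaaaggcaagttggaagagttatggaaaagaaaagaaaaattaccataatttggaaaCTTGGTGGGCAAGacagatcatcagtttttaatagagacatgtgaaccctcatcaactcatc

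The proteins fell into 3 kinds by sequence. The 7 loci AT5G53230, AT5G53240, AT5G55270, AT5G54560, AT5G54550, AT5G52930 and AT4G13680 code for proteins that were 56.6 to 82.7% identical over their 21 pairs, and all 7 have a single exon. AT1G30160 and AT1G30170, with 3 exons each, code for proteins that were 52.0% identical to each other and 34.2 to 43.2% identical to the 7. The F-box protein of AT4G17565 was 21.8 to 26.8% identical to the others. All 10 proteins are of similar length, from 354 to 378 residues. The motif was present at all 7 loci of the first kind and at AT1G30170.

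Of the 10 loci, 6 lie within 0.95 Mb of chromosome 5, and 3 pairs are direct neighbours. AT5G53230 and AT5G53240 follow each other on the same strand with 1472 bases between them, and their proteins were 67.3% identical. Their longest identical stretch of transcript was 36 bases, and they shared no word of 50 bases. AT5G54550 and AT5G54560 also follow each other, 1365 bases apart. Their proteins were 82.7% identical, and a run of 60 bases gave 11 shared words of 50 bases, so reads from that stretch cannot be assigned to 1 of them. AT1G30160 and AT1G30170 face each other, and their 3′ ends overlap by 57 bases in TAIR10.1. The library kit keeps strand, but whether the counting used it is not given in the sources used here, so reads from the overlap may count for either gene.

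Sharing of reads was limited to small parts of these transcripts. Of all 50-base words of a transcript, the share found more than once in the genome was 0.00% for 6 of the loci and 0.53 to 0.95% for AT5G55270, AT5G52930, AT5G54560 and AT5G54550. This share counts repeats only, so the overlap of AT1G30160 and AT1G30170 is not in it. The treatment of reads with more than 1 match is not stated either. In 5 gene pairs of the plastid inverted repeat, which are identical copies, 47.3 to 52.2% of the reads of a pair were counted in the first copy.

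In the white border the 10 loci together had 4616 and 2512 counts, in the green border 65 and 65, and in the centre 36 and 76. Scaled to library size after TMM adjustment, the sums were 94.1 and 50.7 CPM in the white border, 1.86 and 2.26 in the green border, and 3.19 and 5.21 in the centre. The TMM factors were 1.71 and 1.73 in the white border, 1.22 and 1.14 in the green border, and 0.551 and 0.439 in the centre. They lower the CPM of the borders and raise those of the centre, compared with library totals. Both white-border libraries were above both green-border libraries at 10 of 10 loci, against 19.3% of all genes tested. In edgeR's quasi-likelihood test with Benjamini-Hochberg adjustment, 3 of the 10 were called higher (adjusted p under 0.05), against 0.0549% of all genes. None of the 10 was called without white-border library 1 or either green-border library, only AT1G30170 without white-border library 2, and 4 without either centre library. These counts restate how the loci were chosen, and nothing is read from them. The summed level of the photosynthesis genes was lowest and that of the xylem genes, through IRX3 and XCP1 but not VND7, highest in the same 2 libraries. The phloem sum was lower there than in the green border, and FMA was higher there than in every wild-type library. The part of these differences in the levels of the 10 loci was not tested.

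**Figure D2:**
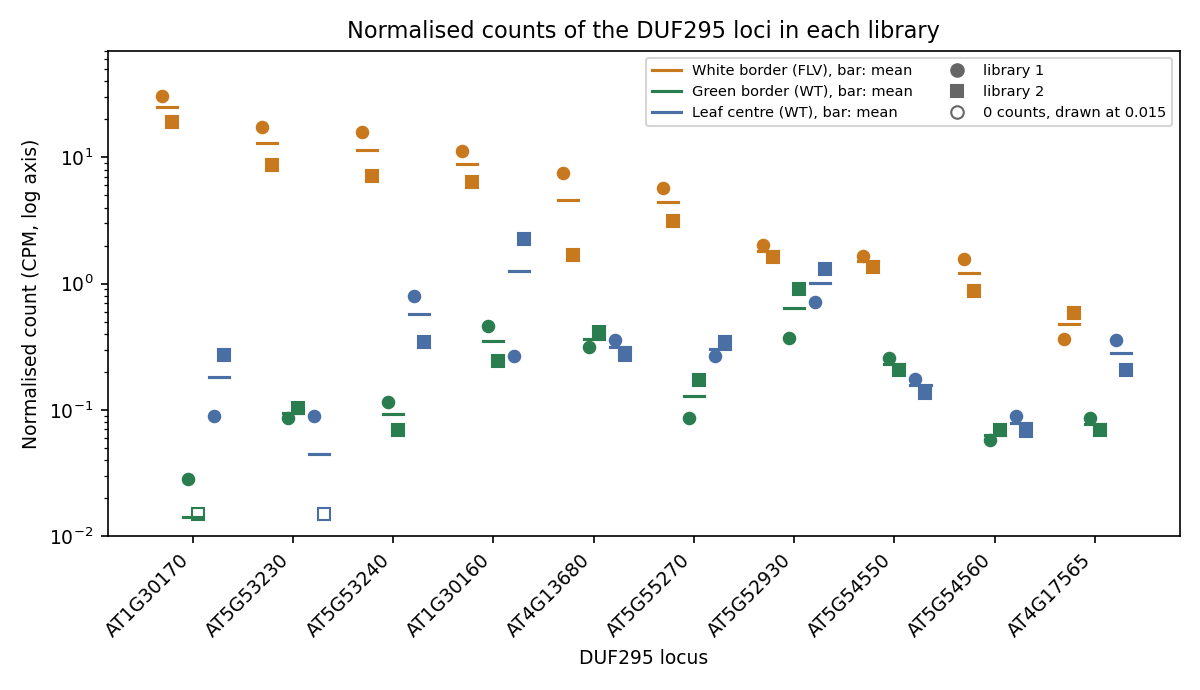
Normalised counts (CPM, log axis) of each locus in each library, coloured by group, with circles for library 1, squares for library 2 and bars for the mean of the group; open symbols are libraries with 0 counts, drawn at 0.015. White-border symbols lie above the wild-type symbols of the same locus at all 10 loci, by the narrowest margins at AT5G52930 and AT4G17565.

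AT1G30170 (chr1:10607888-10609618, minus strand of TAIR10.1) had 30.6 and 19.2 CPM in the white border, 0.0286 and 0 in the green border, and 0.0887 and 0.274 in the centre. It was nearly silent in the wild type, where a single read was counted in the 2 green-border libraries against 1502 and 953 in the white border. The ratio of summed normalised counts was 1590 (95% counting interval 285 to 62700), and the fitted log2 fold change of 10.32 ± 0.91 (SE) leans on that 1 read. In green-border library 2, the limit that a count of 0 allows is 3 counts, or 0.104 CPM.

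Its convergent neighbour AT1G30160 (chr1:10606159-10607944, plus strand) had 11.3 and 6.38 CPM in the white border, 0.458 and 0.243 in the green border, and 0.266 and 2.26 in the centre. Both white-border libraries stood above the others, but the 2 centre libraries lay far apart and overlapped the range of the green border. The log2 fold change of white over green border was 4.63 ± 0.93. How many of the reads of AT1G30160 lie in the 57 bases it shares with AT1G30170 cannot be read from counts per gene.

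In the tandem pair on chromosome 5, AT5G53230 (chr5:21598848-21600008, plus strand) had 17.5 and 8.72 CPM in the white border, 0.0859 and 0.104 in the green border, and 0.0887 and 0 in the centre. AT5G53240 (chr5:21601481-21602739, plus strand) had 15.8 and 7.17 CPM in the white border, 0.115 and 0.0694 in the green border, and 0.799 and 0.343 in the centre. The pair behaved alike in the white border and the green border, where neither gene's groups overlapped, but in the centre AT5G53230 was at or below 1 read per library and AT5G53240 had 9 and 5 reads. The log2 fold changes of white over green border were 7.06 ± 0.80 for AT5G53230 and 6.88 ± 0.81 for AT5G53240. Together with AT1G30170, these are the 3 loci called higher, and they gave 67.9 and 69.3% of the counts of the 10 loci in the white-border libraries.

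AT5G55270 (chr5:22419147-22420518, plus strand) had 5.71 and 3.11 CPM in the white border, 0.0859 and 0.174 in the green border, and 0.266 and 0.343 in the centre. In CPM the 3 groups did not overlap, with the green border lowest, but the green border and the centre each had 3 and 5 reads. The log2 fold change of white over green border was 5.07 ± 0.79. AT4G13680 (chr4:7951491-7952978, minus strand) had 7.50 and 1.68 CPM in the white border, 0.315 and 0.416 in the green border, and 0.355 and 0.274 in the centre. The 2 white-border libraries differed 4.48-fold at this locus, more than at any other of the 10, yet the lower one was still above all 4 wild-type libraries. Its log2 fold change over the green border was 3.64 ± 0.85, and without white-border library 1 it was 2.18.

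The second tandem pair was lower. AT5G54550 (chr5:22158364-22159565, plus strand) had 1.65 and 1.35 CPM in the white border, 0.258 and 0.208 in the green border, and 0.177 and 0.137 in the centre. AT5G54560 (chr5:22160931-22162513, plus strand) had 1.57 and 0.868 CPM in the white border, 0.0573 and 0.0694 in the green border, and 0.0887 and 0.0686 in the centre. Their log2 fold changes over the green border were 2.66 ± 0.68 and 4.19 ± 0.82, though AT5G54560 had at most 2 reads in any wild-type library. These are the 2 loci that share 50-base words.

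The last 2 loci stood closest to the wild type. AT5G52930 (chr5:21470299-21471861, plus strand) had 2.04 and 1.62 CPM in the white border, 0.372 and 0.902 in the green border, and 0.710 and 1.30 in the centre, a log2 fold change over the green border of 1.52 ± 0.71. AT4G17565 (chr4:9782508-9783644, minus strand), the F-box locus without the motif, had 0.367 and 0.586 CPM in the white border, 0.0859 and 0.0694 in the green border, and 0.355 and 0.206 in the centre, a log2 fold change of 2.55 ± 0.80. At both loci the white border and the centre were separated by little: 0.367 against 0.355 CPM at AT4G17565 and 1.62 against 1.30 at AT5G52930.

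Over the 10 loci the median log2 fold change of white over green border was 4.41, against 0.02 for all genes tested. White-border library 1 was above library 2 at 9 of the 10 loci, with a median ratio of 1.79, while 48.9% of all tested genes were higher in library 1. The exception was AT4G17565, with a ratio of 0.626.

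Levels of different genes can be set side by side per length. In the white border, AT1G30170 led with 22.3 and 14.0 CPM per kb, followed by AT5G53230 with 16.2 and 8.10, AT5G53240 with 12.6 and 5.69, and AT1G30160 with 8.90 and 5.01. This order held in each of the 2 libraries, but the ranges of neighbours in it overlapped. AT4G13680 (5.81 and 1.30 CPM per kb) and AT5G55270 (4.55 and 2.48) came next with overlapping ranges. AT5G54550 (1.42 and 1.17), AT5G52930 (1.30 and 1.03) and AT5G54560 (1.45 and 0.802) lay below both of those means and were not separated from each other. AT4G17565 was lowest, with 0.323 and 0.515 CPM per kb, apart from all others.

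The order in the wild type was different. In the green border, AT5G52930 had the highest mean level, 0.408 CPM per kb, and AT1G30170 the lowest, 0.0105. In the centre the highest means were 0.994 CPM per kb for AT1G30160, 0.644 for AT5G52930 and 0.453 for AT5G53240, and the lowest was 0.0412 for AT5G53230. With so few reads, most wild-type ranks are not resolved: 6 of the 10 loci had 5 or fewer counts in each green-border library and 8 of the 10 in each centre library.

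**Figure D3:**
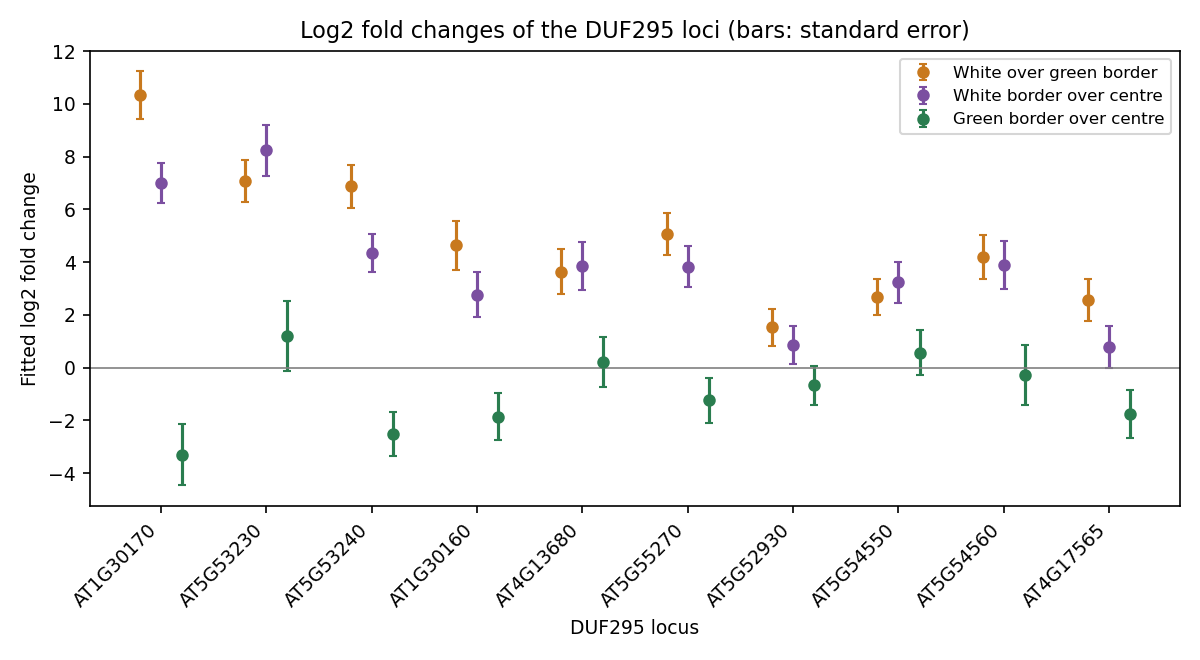
Fitted log2 fold changes with standard errors of the 10 loci in the 3 pairs of groups. All 10 values of white over green border and over the centre are above 0, while those of green border over centre lie on both sides of 0.

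Whether the loci differ between the border and the centre of a wild-type leaf is a comparison in which the centre had no part in choosing them, although the green border did. The white border also decided which loci could be tested: in a fit of the 4 wild-type libraries alone, only AT1G30160, AT4G13680 and AT5G52930 passed the filter on low counts, so the counts and medians below describe the loci and support nothing about them. In edgeR's quasi-likelihood test with Benjamini-Hochberg adjustment 0 of the 10 were called, against 6.13% of all genes, with adjusted p from 0.0874 to 0.89. At an unadjusted p under 0.05 there were 2, AT1G30170 and AT5G53240, against 29.9% of all genes, and DESeq2 called 1, against 4215 of the 21852 genes. The loci had 7 negative and 3 positive log2 fold changes and a median of -0.96, against -0.02 for all genes, and low green-border values had helped to choose them. Without a scaling factor the median of all genes moved to 1.24 and that of the loci to 0.31.

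Groups did not overlap at 5 loci. The green border was above the centre at 1, AT5G54550, against 30.6% of all genes. It was below the centre at 4, AT5G53240, AT5G55270, AT4G17565 and AT1G30170, against 27.2%. AT5G55270 had 3 and 5 reads in both groups, and AT4G17565 had 3 and 2 in the green border and 4 and 3 in the centre. Their separation rests on the scaling, and the counting intervals of their ratios, 0.133 to 1.24 and 0.0725 to 1.06, include 1. The interval of AT5G54550, 0.484 to 6.29, also does. AT1G30170 is among the 4 only by the margin between 0.0286 and 0.0887 CPM, a single read in each of those libraries, and its ratio of summed normalised counts was 0.0811 (counting interval 0.00171 to 0.725). AT5G53240 had the smallest adjusted p, with a log2 fold change of -2.53 ± 0.83 (edgeR, adjusted p = 0.0874), and DESeq2 gave -2.66 with an adjusted p of 0.0333. AT1G30160 had -1.86 ± 0.90 (edgeR, adjusted p = 0.198), and centre library 2 decided that value: it was 0.50 without that library and -2.60 without centre library 1, where edgeR called it with an adjusted p of 0.0491. AT5G53230 and AT5G54560 had at most 3 counts in every wild-type library, so no fold is read for them; for the other 8 the median was -1.50, with 2 positive and 6 negative. Differences at the remaining loci were not detectable at this depth, where 3 counts correspond to 0.0859 and 0.104 CPM in the green border and 0.266 and 0.206 in the centre.

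Against the centre, both white-border libraries were above both wild-type libraries at all 10 loci, compared with 34.2% of all genes. This comparison uses the same white-border libraries that chose the loci and is given without a test. The log2 fold changes ran from 0.78 ± 0.78 at AT4G17565 and 0.85 ± 0.72 at AT5G52930 to 7.01 ± 0.76 at AT1G30170. AT5G53230 lay above that, on a single read in the centre. For AT5G53230 the ratio of summed normalised counts was 338 (counting interval 60.6 to 13400), and for AT5G54560, on 2 reads, it was 15.7 (4.26 to 131). AT5G53240, AT4G13680 and AT5G55270 had 4.35 ± 0.71, 3.86 ± 0.92 and 3.83 ± 0.77. AT5G54550 had 3.24 ± 0.78 and AT1G30160 2.77 ± 0.86. The values over the centre share the white-border libraries with those over the green border: AT4G17565 had 2.55 over the green border and 0.78 over the centre, and AT1G30160 4.63 and 2.77.

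The rest of the family lay closer to the values of all genes. RefSeq text names DUF295 for 102 loci, of which 92 are not on the list, and 27 of these 92 had enough counts to be tested. Their log2 fold changes of white over green border had a median of 0.21, with 18 positive and 9 negative (66.7% positive, against 51.6% of all genes). Both white-border libraries were above both green-border libraries at 7 (25.9%, against 19.3% of all genes). By edgeR 0 of the 27 were called (0.0595% of all genes were), with 2 at an unadjusted p under 0.05 (5.53% of all genes) and 1 called by DESeq2 (194 of 21852 genes). Split by product after seeing the data, the 16 tested loci with an F-box had a median of 0.02 and the 6 tested hypothetical proteins 0.60.

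The 4 of these loci with the highest mean CPM had similar values in both borders. CAT4, a cationic amino acid transporter gene that is counted here only through its RefSeq note, had 13.4 and 11.7 CPM in the white border and 11.2 and 12.6 in the green border. The F-box gene AT1G27540 had 10.4 and 10.4 against 12.7 and 9.96, the F-box/kelch-repeat gene AT1G64840 4.89 and 4.34 against 5.15 and 3.61, and AT1G05540 3.77 and 2.56 against 4.41 and 3.19. The ranges of the borders overlapped at all 4 loci, and the log2 fold changes were 0.08, -0.12, 0.07 and -0.26.

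**Figure D4:**
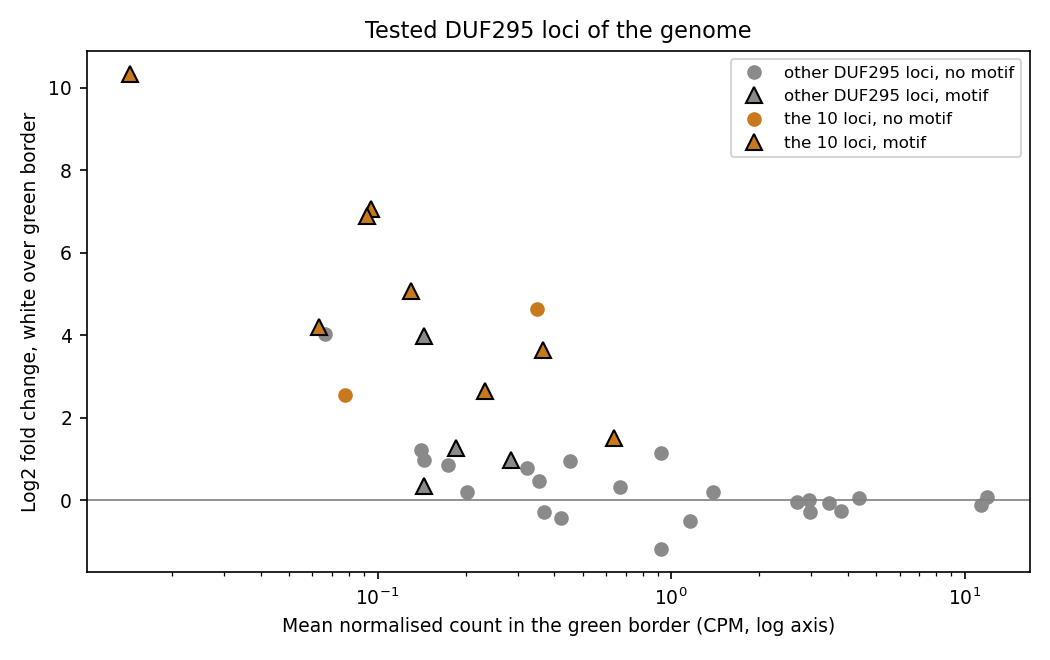
Log2 fold change of white over green border for the 37 tested DUF295 loci against their mean level in the green border (CPM, log axis), with the 10 loci in orange, the others in grey and triangles for loci with the mitochondrial dysfunction motif within 500 bases before the start codon. The 10 loci lie at or below 0.637 CPM in the green border, and loci above 2 CPM lie near 0.

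Outside the list, 2 family members had a log2 fold change above that of AT5G52930, the lowest of the 10, and are named after seeing their values. AT2G24255, an F-box/kelch-repeat protein gene that has the motif, had 2.47 and 2.20 CPM in the white border, 0.115 and 0.174 in the green border, and 0.0887 and 0.137 in the centre. Both white-border libraries were above the 4 wild-type libraries, with a log2 fold change of 3.99 ± 0.73 (edgeR, adjusted p = 0.244). The pseudogene AT1G11482 had 1.24 and 0.969 CPM in the white border, 0.0286 and 0.104 in the green border, and 0.0887 and 0.0686 in the centre. Of the 9 other DUF295 loci with the motif in the 500 bases before the start codon, 4 were tested. All had positive log2 fold changes of white over green border, against 51.6% of all genes, with a median of 1.12. Besides AT2G24255, these were AT4G25920 (0.35 ± 0.94), AT5G52940 (0.99 ± 0.76) and AT5G55150 (1.26 ± 0.92). For white border over centre, 2 of the 4 were positive and 2 negative.

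Most loci with the motif lie outside the family: 612 held it in the 500-base window and 379 were tested. Their median log2 fold change of white over green border was 0.13, against 0.02 for all genes. Both white-border libraries were above both green-border libraries at 30.1% of them, against 19.3% of all, and 3 of the 379 were called higher, against 0.0549% of all. Named after their values were seen, these were ACC2, which codes for a plastid acetyl-CoA carboxylase, with 127 and 97.8 CPM in the white border and 4.04 and 5.59 in the green border, AT1G17960, with 9.72 and 10.4 against 0.286 and 0.139, and AT2G18193, with 23.8 and 33.0 against 0.258 and 0.208. Their edgeR adjusted p were 0.0392, 0.0392 and 0.0209. These calls depend on the model: with a block for library number, 0 genes were called in this comparison. With a length offset 2 were, and AT1G30170 was 1 of them.

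Of the 13 nearest loci outside the family that have counts, 11 were tested, with log2 fold changes of white over green border from -1.06 to 1.30 and a median of -0.14. In edgeR's test 0 were called (0.0595% of all genes were, smallest adjusted p here 0.906), 0 had an unadjusted p under 0.05 (5.53% of all), and DESeq2 called 0 (194 of 21852). At such shares 0 of 11 is close to the background. PPX2, a protein phosphatase gene that ends 156 bases before AT5G55270, had 4.67 and 6.02 CPM in the white border and 6.04 and 5.48 in the green border. FTSZ1-1, a plastid division gene 81 bases beyond its other end, had 38.3 and 44.5 CPM against 67.4 and 54.9. AT5G53220, next to the first tandem pair, had the highest value, 1.04 and 0.929 CPM against 0.315 and 0.486 (1.30 ± 0.66). AT5G52940, a DUF295 gene with the motif that lies 241 bases beyond AT5G52930, had 0.734 and 0.404 CPM in the white border and 0.258 and 0.312 in the green border (0.99 ± 0.76).

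**Figure D5:**
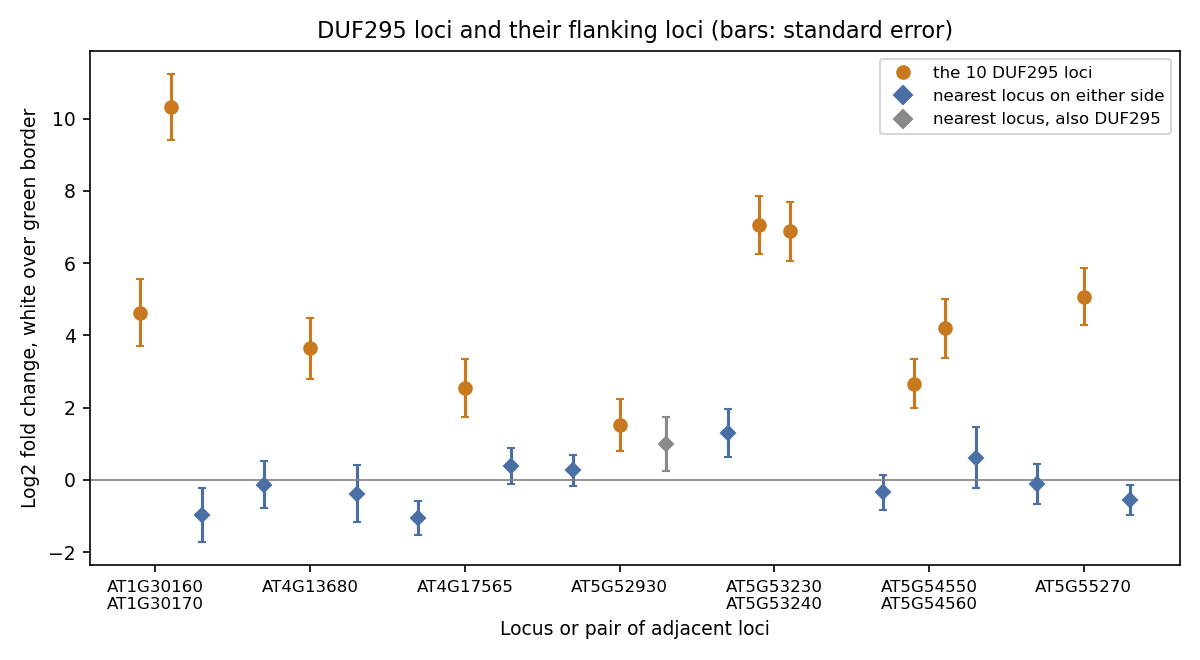
Log2 fold change of white over green border with standard error for the 10 DUF295 loci and the nearest tested loci on either side, grouped by locus or pair of adjacent loci. The 11 flanking loci outside the family lie between -1.06 and 1.30, and the 10 DUF295 loci between 1.52 and 10.32.

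The 14 genes of the mitochondrial dysfunction list, which code for alternative oxidase, alternative NAD(P)H dehydrogenases and other proteins of the response, had summed levels of 165 and 168 CPM in the white border, 49.7 and 56.2 in the green border, and 65.6 and 64.3 in the centre. The near-equal sums hide differences between the white-border libraries at single genes, such as AT2G04050 with 1.59 and 19.2 CPM. Of the 11 tested, 10 had a positive log2 fold change of white over green border, against 51.6% of all genes. Their median was 1.83 against 0.02 for all genes. With 0.0549% of all genes called higher, the single call here was AT2G21640, known as UPOX for its rise under oxidative stress. It had 24.4 and 26.6 CPM against 1.57 and 1.25 (4.17 ± 0.52, edgeR, adjusted p = 0.0392). That call needed all 4 border libraries, since no gene was called without white-border library 1 or either green-border library, and only AT1G30170 without white-border library 2. AOX1A, the main alternative oxidase gene, had 40.0 and 48.4 CPM in the white border, 16.2 and 17.8 in the green border, and 14.4 and 20.4 in the centre, with a log2 fold change over the green border of 1.38 ± 0.43 that did not pass (adjusted p = 0.641). CRF6, a cytokinin response transcription factor gene, had 38.6 and 31.7 against 4.41 and 10.8 CPM (2.21 ± 0.98), and BCS1, the outer mitochondrial membrane ATPase also called OM66, 37.7 and 7.57 against 13.2 and 6.49 (1.20 ± 0.90). Neither CRF6 nor BCS1 passed the test, with adjusted p in edgeR of 0.903 and 1. Over the centre, the green border had a median of -0.27 for this list.

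NAC017, the gene for one of the factors that bind the motif, had 23.8 and 21.0 CPM in the white border, 25.6 and 24.9 in the green border, and 15.0 and 15.4 in the centre. NAC13, which codes for the other, had 3.06 and 11.1 CPM in the white border, 1.15 and 1.98 in the green border, and 2.66 and 0.206 in the centre. NAC13 was thus higher in both white-border libraries than in both green-border libraries, with a log2 fold change of 2.19 ± 0.99 that did not pass (edgeR, adjusted p = 0.909), and NAC017 was not. NAC053, a related regulator, had 7.97 and 6.85 CPM in the white border, 2.83 and 3.61 in the green border, and 0.177 and 1.51 in the centre. Its log2 fold change of white over green border, 1.20 ± 0.71, did not pass either. Together the 3 genes summed to 34.8 and 39.0 CPM in the white border, 29.6 and 30.5 in the green border, and 17.8 and 17.2 in the centre.

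Genes outside the family that followed the 10 loci most closely were sought by the distance between their log2(CPM + 0.1) profiles over the 6 libraries, each centred on its mean, and the median profile of the 10 loci. That median profile was 2.95 and 1.82 in the white border, -1.35 and -1.20 in the green border, and -0.93 and -1.05 in the centre. The closest gene was AT3G29560 (distance 0.62), of unknown function, with 1.22 and 0.909 CPM in the white border and 0 counts in all 4 wild-type libraries. Its distance therefore depends on the 0.1 added to the CPM. It was followed by AT2G18720 (0.83), annotated as a translation factor of the EF1A/IF2gamma family, with 2.69 and 1.45 CPM in the white border, 0.0859 and 0.0694 in the green border, and 0.266 and 0.0686 in the centre. AT1G35880 and NDB4 were both at 0.88 and AT4G05370 at 0.95. NDB4, an alternative NAD(P)H dehydrogenase gene of the mitochondrial dysfunction list, had 3.67 and 3.21 CPM in the white border, 0.0859 and 0.174 in the green border, and 0.266 and 0.137 in the centre. Among the 10 loci, AT5G54560 (0.78), AT5G55270 (0.81) and AT4G13680 (0.98) lay about as near to the median profile, and AT1G30170 was farthest from it at 4.38. The others lay between 1.55 (AT5G54550) and 3.31 (AT5G53230), so the genes named here are not close to most of the 10.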

How the data were processed

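Trizol-extracted RNA had its rRNA removed before stranded single-end sequencing on Ion Proton, per the labels' protocols. The authors deposited raw counts of reads per gene model, written with the model's length by sam2pkm, per the file headers. The labels name TAIR10. The aligner, the use of strand and the handling of reads with several matches are not given in the sources used here. The 15 rRNA loci were left out, filterByExpr of edgeR 4.0.16 kept 21852 genes, all 10 loci among them, and a quasi-likelihood model with 1 mean per group and TMM scaling was fitted to the 6 libraries (3 residual degrees of freedom). P-values are two-sided, with Benjamini-Hochberg adjustment over all of these genes, and calls are under 0.05. CPM use the TMM-scaled library size, and each ± is a standard error. Counting intervals are exact binomial (95%) and cover counting error only. The fit was tested on simulated data. Sequences, positions and products are from RefSeq on TAIR10.1, and proteins, translated from it, were aligned globally (BLOSUM62, gap open 11, extend 1). Named genes are the 10 loci, the 4 most abundant of the other DUF295 loci and of the mitochondrial dysfunction list, the nearest loci, the 5 closest profiles, DOT4 and summed marker lists; others were added after seeing values. The loci and lists were chosen with earlier results of these data known. DESeq2 1.42.0, other scalings, no filter, a length offset, fewer libraries and a library-number block were alternatives.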

Additional observations from a re-analysis of the deposited data

How the results depend on the processing

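The direction of white over green border and over the centre was positive for all 10 loci in each of the 14 alternatives run. Over the green border this restates how the loci were chosen, and the values over the centre share those white-border libraries, so nothing is read from it. Genes called between the white border and the green border numbered 13, and 194 with DESeq2, 2 with the length offset, 23 without the filter, 0 (1313 at an unadjusted p under 0.05) with the replicate block and 0 to 29 with a library left out. Of the 10 loci, 3 were called, 7 with DESeq2, 1 with the length offset, 4 without the filter, 0 with the block, 0 without white-border library 1 or either green-border library, 1 (AT1G30170) without white-border library 2, and 4 without either centre library. Between the green border and the centre 1339 genes were called, and 4215 with DESeq2, 419 with the length offset, 7804 with library totals, 2055 without the filter, 337 with only the 4 libraries compared and 1 to 3260 with a library left out. The median log2 fold change of the 10 loci for green border over centre, -0.96, was 0.31 with library totals, -0.71 without the filter, -0.78 with only the 4 libraries, where it is over the 3 loci that passed the filter (AT1G30160, AT4G13680 and AT5G52930), and -1.38 to -0.23 with a library left out. For white border over centre the median, 3.84, was 5.63 with library totals, where the median of all genes was 1.85 (0.56 over the green border). For green border over centre, library totals turned AT5G55270 to 0.01, AT5G54560 to 0.90 and AT5G52930 to 0.60, while the median of all genes was 1.24, and AT1G30160 turned to 0.50 without centre library 2 (-2.60, called, without centre library 1). Library totals add a shift common to all genes. The cause of the other changes was not tested. Deviations of same-numbered libraries correlated at 0.44 between the white border and the green border over 17481 genes. For the green border with the centre the value was 0.10, and for the white border with the centre 0.06. The borders thus shared part of their difference between library 1 and library 2, and whether the numbers pair the samples was not tested. A group left with 1 library was assumed to vary like the other groups. With only loci whose own annotation names the domain, an alternative added after seeing the data, the other DUF295 loci had a median of 0.20 in 22 tested. Low wild-type counts limit every fold given here: 3 counts are 0.0612 to 0.266 CPM, depending on the library.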
